A study of Mus musculus with 6 samples.

Results

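The transcription factor p53, encoded by Trp53, and 9 genes that it is known to activate were followed in mouse embryonic stem cells (mESC) with a reduced dose of Srrm2. The 9 targets were Mdm2, Ccng1, Bbc3, Bax, Phlda3, Trp53inp1, Sesn2, Zmat3 and Eda2r. The 10 genes were taken by name from a table of 42450 genes, and all 10 were among the 18905 genes with enough counts to be tested. Total RNA was sequenced from 6 cultures of male cells. WT cells (3 libraries) were the E14tg2a.4 line. Srrm2+/- cells (3 libraries) were derived from that line and carry a gene-trap cassette that truncates 1 allele of Srrm2, the gene of a nuclear speckle protein that acts in splicing. Both lines were grown on gelatin with LIF, the cytokine that sustains pluripotency, and were moved to serum-free medium with LIF before collection. The labels give the length of that step as alternatives and do not tie it to a library, and the study's methods give 1 culture time for these RNA samples that is not among them. Replicates were thawed from 3 separately frozen batches of each line. The Srrm2+/- line is 1 gene-trap clone and was frozen at other passages than WT, so genotype, clone and passage cannot be told apart.

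In most cells p53 is made continuously and degraded continuously, because the ubiquitin ligase MDM2 and its partner MDM4 bind it. DNA damage and other stresses block that degradation, so p53 activity is set mainly at the protein level, and the RNA of its targets is the usual readout of that activity in expression data. Targets halt the cell cycle, trigger apoptosis, repair DNA or adjust metabolism, and several of them, Mdm2 first among them, act back on p53. Mouse ESC hold abundant p53 and are known for a weak arrest at the G1 checkpoint. p53 protein was not measured in these libraries.

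WT libraries held 54151532 to 58499961 estimated counts and Srrm2+/- libraries 61023103 to 69933465. Srrm2 itself, the targeted gene, lay at 91.2, 98.3 and 97.7 normalized CPM (counts scaled to library size) in WT and at 62.3, 56.2 and 59.6 CPM in Srrm2+/- (log2 fold change -0.69, standard error (SE) 0.05, adjusted p by edgeR = 2.38e-05), lower in every library labelled Srrm2+/-. The 8 markers of pluripotent stem cells summed to 5058 to 5241 CPM in WT and to 4426 to 4537 CPM in Srrm2+/-, and 5 of them fell while 1 rose. Both groups therefore carried the labelled cell type's markers at high levels as a sum. Nanog fell most, from 482 to 292 CPM (log2 fold change -0.72, adjusted p by edgeR = 8.6e-06), and Utf1 rose (0.52). Of 6 fibroblast and feeder markers, 4 rose. The sum of all 6 was 3.47 to 3.68 CPM in WT and 6.94 to 10.8 CPM in Srrm2+/-. Thy1, the largest of them in WT, went the other way, from a mean of 1.93 to 1.19 CPM. Neither Thy1 (log2 fold change -0.70, edgeR adjusted p = 0.0939) nor Pdgfrb (0.23, 0.685) passed the test. Among trophectoderm markers Eomes rose and Cdx2 held no count in WT, and no primitive endoderm marker passed the test. Of 4 neural markers Tubb3 and Pax6 fell, Neurod1 rose and Sox1 passed no test, and their sum, which Tubb3 and Pax6 dominate, was 80.4 to 86.7 CPM in WT and 58.4 to 60.8 CPM in Srrm2+/-. The part of other cells in the results that follow was not tested, and in bulk RNA fewer cells of a type and less RNA per cell cannot be told apart.

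To see what sequence the members share at their starts, RefSeq promoter windows (build GRCm38.p6, 300 bases from 250 before to 50 after each start) were searched for the p53 half-site consensus, a 10-base motif that is its own reverse complement and that p53 tetramers bind in pairs. Of the 10 genes, 8 matched a window by symbol, and Trp53inp1 and Zmat3 did not. The 5 stretches shown are those that hold an exact half-site, or 2 half-sites with at most 1 base between them and at most 3 mismatches over 20 positions. This limit was set after the matches were seen. Capitals mark the matched bases, and each stretch is written 5′ to 3′ on the gene's own strand.
Ccng1, chr11:40755432-40755511, minus strand: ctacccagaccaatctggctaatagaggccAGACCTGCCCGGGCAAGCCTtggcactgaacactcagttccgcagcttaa
Bax, chr7:45467049-45467129, minus strand: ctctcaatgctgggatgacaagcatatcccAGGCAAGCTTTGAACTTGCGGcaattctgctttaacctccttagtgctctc
Bbc3, chr7:16309456-16309535, plus strand: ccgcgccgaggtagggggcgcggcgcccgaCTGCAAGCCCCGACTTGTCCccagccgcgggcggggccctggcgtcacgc
Trp53, chr11:69580254-69580333, plus strand: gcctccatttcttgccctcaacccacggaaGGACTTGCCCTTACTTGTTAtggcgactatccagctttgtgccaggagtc
Mdm2, chr10:117710905-117710974, minus strand: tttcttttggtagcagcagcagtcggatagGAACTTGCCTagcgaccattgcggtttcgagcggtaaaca

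The Ccng1 pair had 1 mismatch and lay 195 to 176 bases before the RefSeq start. The Bax pair had 2 mismatches and 1 spacer base, 201 to 181 bases before the start. The Bbc3 and Trp53 pairs had 3 mismatches each and lay nearer, at 97 to 78 and at 75 to 56 bases. Bbc3 had 3 windows, and those not shown held no match (best pairs with 6 and 8 mismatches). The bases just after the RefSeq starts of Bbc3 and of Phlda3 were not found in a GENCODE transcript of the gene. Mdm2 held a single exact half-site 186 to 177 bases before its start, and the well-known p53-responsive promoter of Mdm2 lies inside the gene, which this window does not cover. All stretches lie upstream of the RefSeq start used. In GENCODE release M21 the Bbc3 stretch also falls in an intron of a longer Bbc3 transcript, the Bax stretch in an intron of the read-through gene Gm45808, and 2 bases of the Trp53 stretch in an exon of Wrap53, which starts on the opposite strand. An exact half-site was in the windows of 4 of the 8 matched members (Ccng1, Bax, Trp53 and Mdm2), against 9.55% of 27025 genes with a window and 8.36% of all 32851 windows. A pair was in 4 of 8 members and in 3.27% of genes, at a limit set after the members' matches were seen. The Bbc3 and Trp53 pairs lay exactly at that limit, so these shares are no test. Among 41 other p53 targets listed further on, 10 had a half-site and 10 had a pair. The windows of Phlda3, Sesn2 and Eda2r held no match at these settings. Letters in a window are a description and do not show that p53 binds there.

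Between the genotypes, 4 of the 10 genes rose in Srrm2+/- cells and none fell. The 4 were Phlda3, Bbc3, Mdm2 and Ccng1, at 1.19-fold to 1.66-fold the WT mean, while the RNA of p53 itself differed by less than the spread between replicates. In the whole data set 25.3% of tested genes passed the test, 13.6% as higher and 11.7% as lower, so the 4 of 10 are to be read against a share of 13.6%. The groups did not overlap for 5 of the 10, all higher in Srrm2+/-. Of all 18905 genes tested, 7835 (41.4%) did not overlap in either direction, 4053 of them higher in Srrm2+/-. The median log2 fold change of the 10 genes was 0.19, beside -0.0025 for all genes tested.

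Trp53 measured 34.1, 48.2 and 49.5 CPM in the WT libraries and 46.4, 37.0 and 47.5 CPM in the Srrm2+/- libraries. The groups overlapped, with WT replicate 1 the lowest library of all and Srrm2+/- replicate 2 the next. The means were 43.9 ± 8.57 CPM and 43.7 ± 5.76 CPM (SD, n = 3 each), and the log2 fold change was -0.01 with a standard error of 0.14 (edgeR, adjusted p = 0.971). With an SE of that size the direction was not determined, and it turned with the libraries used. A difference too small for this spread was not detectable, and missing the threshold does not show that the levels were equal. Of the 31-base words of Trp53 transcripts, 10.2% also occur in other genes, most of them in the processed pseudogene Trp53-ps, which held 1 count over all 6 libraries.

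**Figure D1:**
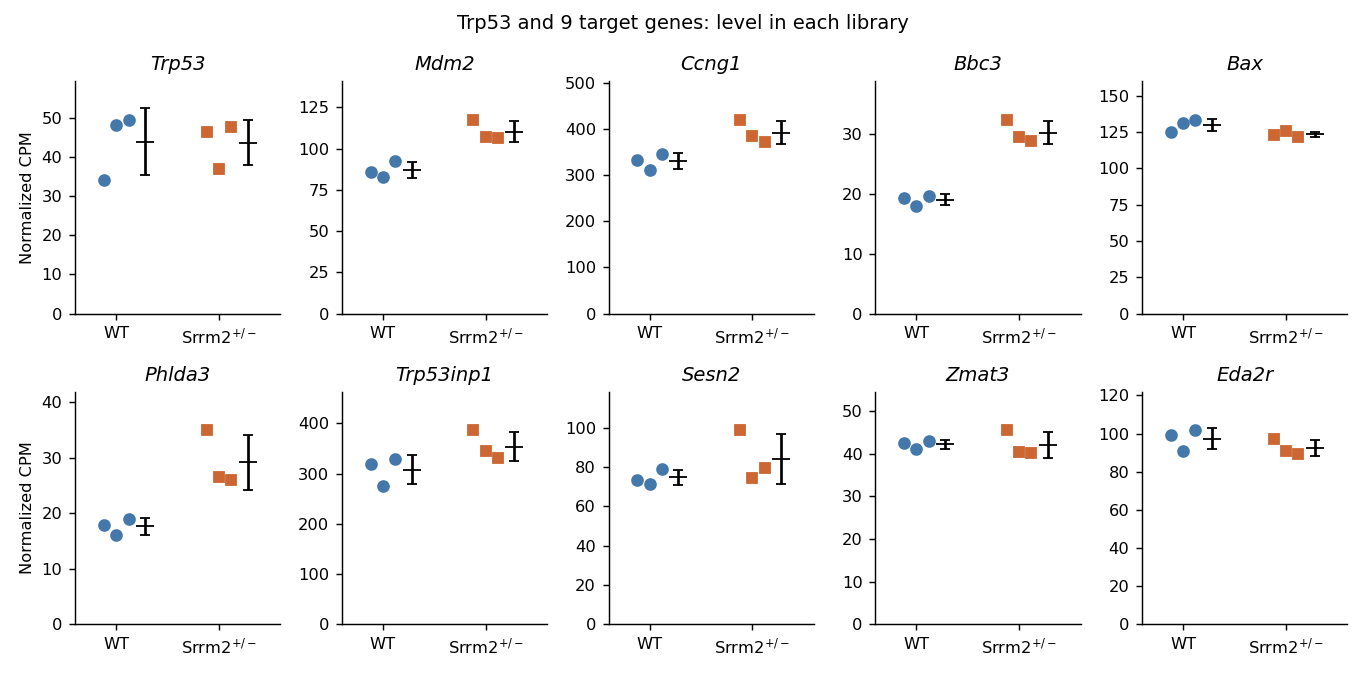
Normalized CPM (vertical axes, from 0, a scale of its own for each gene) of Trp53 and 9 targets in the 3 WT (circles) and 3 Srrm2+/- (squares) libraries, with the mean and SD beside the points. The Srrm2+/- points lie above all WT points for Mdm2, Ccng1, Bbc3, Phlda3 and Trp53inp1, whereas for Trp53 the groups share the range from 37.0 to 47.5 CPM.

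Mdm2, the ubiquitin ligase that marks p53 for degradation and is itself a p53 target, gave 85.6, 82.9 and 92.2 CPM in WT and 117, 107 and 106 CPM in Srrm2+/-. Every Srrm2+/- library was above every WT library. The mean went from 86.9 ± 4.79 to 110 ± 6.31 CPM (SD, n = 3 each), giving a log2 fold change of 0.34 with a standard error of 0.06 (edgeR, adjusted p = 0.00219). Ccng1 encodes cyclin G1, which recruits a phosphatase to MDM2 and belongs to the same feedback. Its levels were 334, 313 and 346 CPM in WT and 421, 384 and 373 CPM in Srrm2+/-, again without overlap. Ccng1 rose by a log2 fold change of 0.25 with a standard error of 0.06 (edgeR, adjusted p = 0.0123), from 331 ± 17.0 to 393 ± 24.8 CPM. Both negative feedback genes were thus higher while Trp53 RNA showed no detectable difference.

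Bbc3 encodes PUMA, a BH3-only protein that releases the mitochondrial path of apoptosis. It measured 19.4, 18.0 and 19.7 CPM in WT and 32.4, 29.4 and 28.8 CPM in Srrm2+/-. The gap between the groups was wide relative to the spread within them, and the log2 fold change was 0.67 with a standard error of 0.06 (edgeR, adjusted p = 0.000101), 1.59-fold on the means. Phlda3, whose product blocks the kinase AKT at the membrane, gave 17.8, 16.0 and 19.0 CPM in WT and 34.9, 26.6 and 26.0 CPM in Srrm2+/-. Srrm2+/- replicate 1 stood above the other two, but even the lowest Srrm2+/- library exceeded every WT library. Its log2 fold change of 0.73 with a standard error of 0.12 (edgeR, adjusted p = 0.0019) was the largest of the 10 genes. Phlda3 had no match in the 1 window searched, whereas Bbc3, with 3 windows searched, had a pair with 3 mismatches.

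Bax, the pore-forming effector on which PUMA acts, measured 125, 131 and 134 CPM in WT and 123, 126 and 122 CPM in Srrm2+/-. The groups overlapped, and the log2 fold change of -0.07 with a standard error of 0.04 (edgeR, adjusted p = 0.202) did not pass the test. Bax shares 192 exon bases on the same strand with the read-through gene Gm45808. Of the 31-base words of Bax, 11.1% occur in other genes, most of them in Gm45808 (9.89%). No level of Gm45808 was found in these data, so its share of the reads is not known and Bax counts carry that uncertainty. Eda2r, a receptor of the tumour necrosis factor receptor family that binds ectodysplasin A2, lies on chromosome X. It gave 99.5, 91.0 and 102 CPM in WT and 97.2, 90.9 and 89.4 CPM in Srrm2+/-. These ranges overlapped too (log2 fold change -0.07, standard error 0.05, adjusted p by edgeR = 0.367).

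Trp53inp1, a stress-induced protein that promotes phosphorylation of p53 and takes part in autophagy, measured 319, 275 and 330 CPM in WT and 386, 344 and 331 CPM in Srrm2+/-. The groups did not overlap, although the lowest Srrm2+/- library was close to the highest WT library. The log2 fold change was 0.20 with a standard error of 0.08 (edgeR, adjusted p = 0.0949) and missed the threshold, whereas DESeq2 put the gene past it (0.20; adjusted p = 0.0187). Sesn2 encodes sestrin 2, a leucine sensor that restrains mTORC1. Its values were 73.5, 71.4 and 79.2 CPM in WT and 98.6, 74.1 and 79.7 CPM in Srrm2+/-. Srrm2+/- replicate 1 stood high, and the other two Srrm2+/- libraries lay within or next to the WT range. The log2 fold change of Sesn2 was 0.17 with a standard error of 0.10 (edgeR, adjusted p = 0.235), and 0.04 without that library.

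Zmat3, an RNA-binding zinc finger protein that takes part in splicing and RNA stability, gave 42.5, 41.0 and 43.0 CPM in WT and 45.4, 40.5 and 40.0 CPM in Srrm2+/-. The WT values fell inside the Srrm2+/- range. The log2 fold change of -0.01 with a standard error of 0.06 (edgeR, adjusted p = 0.952) was near 0, with a smaller SE than that of Trp53, and its sign too changed with the libraries used.

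**Figure D2:**
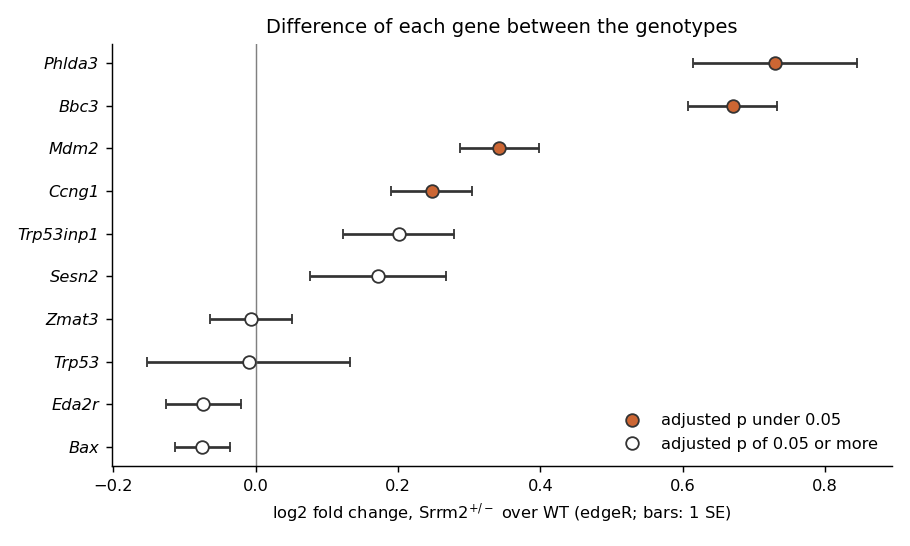
Log2 fold change of each gene, Srrm2+/- over WT (horizontal axis), with bars of 1 SE from edgeR, filled where the adjusted p was under 0.05. Phlda3 (0.73) and Bbc3 (0.67) lie farthest to the right, Mdm2 (0.34) and Ccng1 (0.25) are also filled, and the bar of Trp53 is the widest.

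Within each group the 10 genes tended to be high or low in the same library. WT replicate 3 was the highest WT library for all 10 genes, although it was the highest for 31.1% of all genes tested. WT replicate 2 was the lowest WT library for 8 of the 10, against 31.6% of all genes. In Srrm2+/- cells replicate 1 was the highest library for 8 of the 10 (34.5% of all genes) and replicate 3 the lowest for 8 (32.0%). The exceptions in WT were Trp53 and Bax, which were lowest in replicate 1. The median log2 fold change of the 10 genes was 0.09 without Srrm2+/- replicate 1, but Phlda3, Bbc3, Mdm2 and Ccng1 still passed the test without any one library. The 3 genes whose log2 CPM ran most like that of Trp53 over the 6 libraries, out of 11951 genes searched, were Mcm4 (Pearson r = 0.986), Ubqln4 (r = 0.983) and Med24 (r = 0.981). All 3 were lowest in WT replicate 1 and next lowest in Srrm2+/- replicate 2, as Trp53 was. These correlations are a description over 6 libraries and were picked as the highest of many.

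On a scale that allows comparison between genes, CPM per kb of merged exons, Ccng1 (94.2 ± 4.83, SD, n = 3) and Bax (82.5 ± 2.64) led in WT. Trp53inp1 followed at 47.6 ± 4.52, Sesn2 at 21.5 ± 1.16, Mdm2 at 17.1 ± 0.943 and Eda2r at 16.5 ± 0.957 CPM per kb. Phlda3 (11.3 ± 0.953), Trp53 (10.9 ± 2.12) and Bbc3 (8.95 ± 0.434) were lower, and Zmat3 came last at 3.69 ± 0.0899 CPM per kb. Neighbours whose libraries overlapped in that order were Mdm2 and Eda2r, Phlda3 and Trp53, and Trp53 and Bbc3. In Srrm2+/- cells Phlda3, at 18.7 ± 3.19 CPM per kb, stood above Eda2r (15.7 ± 0.705) without overlap, and Bbc3, at 14.2 ± 0.892, stood above Trp53 (10.8 ± 1.42). Sesn2 and Mdm2, Mdm2 and Phlda3, and Eda2r and Bbc3 were the overlapping neighbours there. The length used changed this order. Per kb of the longest transcript, Bax led in WT with 118 and Ccng1 followed with 94.2, Mdm2 (27.6) stood above Sesn2 (21.5) without overlap, and Trp53 (13.4) was above Phlda3 (12.3) with overlap. In Srrm2+/- cells on that scale Phlda3 and Eda2r overlapped, whereas Bbc3 still stood above Trp53 without overlap.

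**Figure D3:**
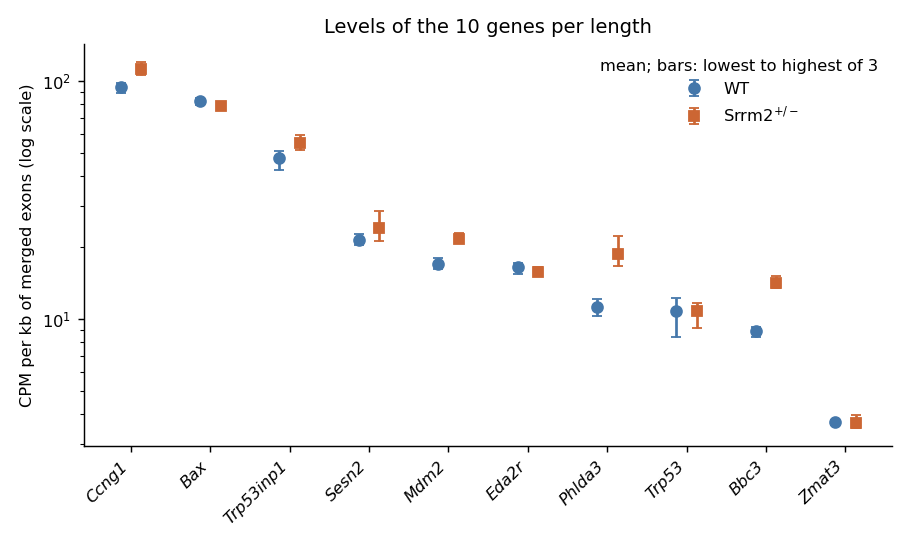
CPM per kb of merged exons (vertical axis, log scale) for the 10 genes in order of their WT mean, with bars from the lowest to the highest of 3 libraries. Ccng1 (94.2 in WT) and Zmat3 (3.69) mark the ends, and Bbc3 passes from below Trp53 in WT to above it in Srrm2+/-.

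Of 20 regulators, genes whose products act on p53, 6 fell and 1 rose in Srrm2+/- cells, beside 11.7% and 13.6% of all genes, and the median log2 fold change was -0.08 (-0.10 to -0.04 with one library left out, nearest 0 without Srrm2+/- replicate 2). Kat5, the acetyltransferase TIP60, fell from 6.81 ± 1.01 to 3.89 ± 1.06 CPM (SD, n = 3; log2 fold change -0.81, edgeR adjusted p = 0.0146). Atm and Atr, the kinases that signal DNA damage to p53, fell by 0.35 and 0.22 on the log2 scale (edgeR adjusted p = 0.00382 and 0.00355). Mdm4, the partner of MDM2 that holds p53 inactive, fell from 224 ± 11.9 to 185 ± 3.24 CPM (log2 fold change -0.27, standard error 0.05, adjusted p by edgeR = 0.00258), the opposite direction to Mdm2. The other two were Chek1 (-0.18) and Sirt1 (-0.19). Cdkn2a, whose ARF product inhibits MDM2, rose from a low 1.93 ± 0.219 to 3.07 ± 0.319 CPM (log2 fold change 0.67; edgeR adjusted p = 0.0116). Ppm1d, the phosphatase WIP1 and itself a p53 target, measured 29.2 ± 0.271 and 32.4 ± 1.71 CPM (edgeR adjusted p = 0.069). Several calls hung on 1 library. Kat5 lost its call without WT replicate 1 or Srrm2+/- replicate 2 or 3 (edgeR adjusted p = 0.0502, 0.0577 and 0.0575), and Sirt1 without Srrm2+/- replicate 1 or 2 (0.0523 and 0.0569). Ppm1d gained a call without Srrm2+/- replicate 2 (0.0328), and Cop1 and Crebbp, ubiquitin ligase and acetyltransferase genes, gained one without Srrm2+/- replicate 1 (0.0444 and 0.0295). For Cop1 the call also hung on the method, as it just missed the threshold in the main fit (edgeR adjusted p = 0.0568). With all libraries it passed by DESeq2 (adjusted p = 0.0316). It also passed with the replicate block and without mitochondrial, rRNA and short RNA genes (edgeR adjusted p = 0.0369 and 0.0431). Of the p53 relatives, Trp73 was low and passed no test (0.761 ± 0.0227 and 0.842 ± 0.0969 CPM), and Trp63 held at most 1 count in any library.

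Among 48 tested genes in 4 lists of further p53 targets, 16 rose (33.3%) and 6 fell (12.5%), beside 13.6% and 11.7% of all genes tested, and the median log2 fold change was 0.11. With one library left out, 11 to 16 genes rose and 4 to 6 fell. Fas, not tested with all libraries, was among the rises in 4 of those fits. Of the 16 rises 12 were in the cell cycle and apoptosis lists, and all 6 falls were in the DNA repair and metabolism lists. In the same libraries the fibroblast and feeder markers summed to at most 10.8 CPM, and their part in these differences was not tested.

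Of 11 cell cycle targets, 5 rose and none fell, beside 13.6% and 11.7% of all genes tested (median log2 fold change 0.24). Sfn, which encodes 14-3-3 sigma, a protein that holds back entry into mitosis, rose from 18.9 ± 1.73 to 67.3 ± 4.88 CPM (log2 fold change 1.83, standard error 0.08, adjusted p by edgeR = 1.35e-06). The polo-like kinase genes Plk2 and Plk3 rose by 1.24 and 0.56, and the antiproliferative gene Btg2 by 0.78, on the log2 scale. Plk2, Plk3 and Btg2 are also known as immediate early genes, which growth factors switch on. Gtse1 was the fifth (0.24, edgeR adjusted p = 0.0277), and its call was lost without WT replicate 1 or 2 or Srrm2+/- replicate 1 or 3 (0.0737 to 0.0919). Cdkn1a, which encodes the CDK inhibitor p21 and is the best-known p53 target, gave 6.22, 6.85 and 5.94 CPM in WT and 7.31, 5.83 and 6.66 CPM in Srrm2+/-. Its groups overlapped, and the log2 fold change was 0.06 with a standard error of 0.11 (edgeR, adjusted p = 0.756).

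Of 15 tested apoptosis targets, 7 rose and none fell, beside 13.6% and 11.7% of all genes tested (median log2 fold change 0.20). Pmaip1, which encodes the BH3-only protein NOXA, gave 7.84, 6.8 and 9.48 CPM in WT and 23.0, 24.4 and 22.9 CPM in Srrm2+/-, a wide gap (log2 fold change 1.55, standard error 0.11, adjusted p by edgeR = 1.85e-05). Perp, a desmosome protein that promotes apoptosis, rose from 12.3 ± 1.09 to 28.8 ± 1.31 CPM (1.22; edgeR adjusted p = 7.13e-06). Apaf1, the core of the apoptosome, rose by 0.32 and Aen, a nuclease, by 0.23 on the log2 scale. Tnfrsf10b (0.22, edgeR adjusted p = 0.0487) and Ei24 (0.18, 0.0304) were near the threshold. Tnfrsf10b lost its call without any one library, with the replicate block, with DESeq2, with limma voom and with a lower count filter (any gene holding a count), and Ei24 lost it with the block and without any one library other than WT replicate 3. Dram1, a lysosomal protein that promotes autophagy, was called at 0.149 ± 0.0216 and 0.427 ± 0.154 CPM (log2 fold change 1.49, standard error 0.39, adjusted p by edgeR = 0.0222). At that low level the call was lost without any one WT library or without Srrm2+/- replicate 3 (adjusted p between 0.0523 and 0.104), and with the replicate block (0.0504). Without Srrm2+/- replicate 3, and likewise with the block, the list had 4 calls, those of Pmaip1, Perp, Apaf1 and Aen. Fas, the death receptor, was too low to test, with 0 counts in all WT libraries and 8, 35 and 16 counts in Srrm2+/-. Against a floor of 3 counts in each WT library it was at least 5.45-fold higher, and the lower count filter, which let it be tested, put it past the threshold (edgeR adjusted p = 0.00185). Fas was also tested and past the threshold without any one WT library or without Srrm2+/- replicate 1 (edgeR adjusted p from 0.0076 to 0.0214).

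Of 8 DNA repair targets, 2 rose and 2 fell, beside 13.6% and 11.7% of all genes tested. The median log2 fold change was -0.03, and -0.06 to -0.01 with one library left out. Polk, a polymerase that copies past DNA lesions, rose by 0.35 (edgeR adjusted p = 0.00733), and Ercc5, a nuclease of excision repair, by 0.26 (0.00347). Pcna, the sliding clamp of replication, fell by 0.18 (edgeR adjusted p = 0.00973), from 362 ± 5.25 to 321 ± 9.31 CPM. Mgmt, which removes alkyl groups from guanine, fell by 0.26 (0.0165), but not past the threshold without WT replicate 2 or Srrm2+/- replicate 3 (0.0689 and 0.0704).

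Of 14 metabolism and redox targets, 2 rose and 4 fell, beside 13.6% and 11.7% of all genes tested. The median log2 fold change was -0.02, and -0.07 to -0.01 with one library left out. Ddit4, which encodes the mTORC1 inhibitor REDD1, rose from 33.2 ± 1.78 to 57.3 ± 1.65 CPM (log2 fold change 0.79, standard error 0.05, adjusted p by edgeR = 1.21e-05). Tigar, a phosphatase that slows glycolysis, went the other way, from 69.6 ± 2.27 to 51.4 ± 2.29 CPM (-0.44; edgeR adjusted p = 0.000207). The epoxide hydrolase gene Ephx1 fell by 0.60 and the glutaminase gene Gls2 by 0.36 on the log2 scale. Fdxr, ferredoxin reductase, was lower by a log2 fold change of -0.27, and Aldh4a1, a mitochondrial dehydrogenase of proline breakdown, was higher by 0.20. Each of these last calls was lost without any of 4 single libraries (edgeR adjusted p from 0.0532 to 0.0779 for Fdxr and from 0.0557 to 0.0596 for Aldh4a1).

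**Figure D4:**
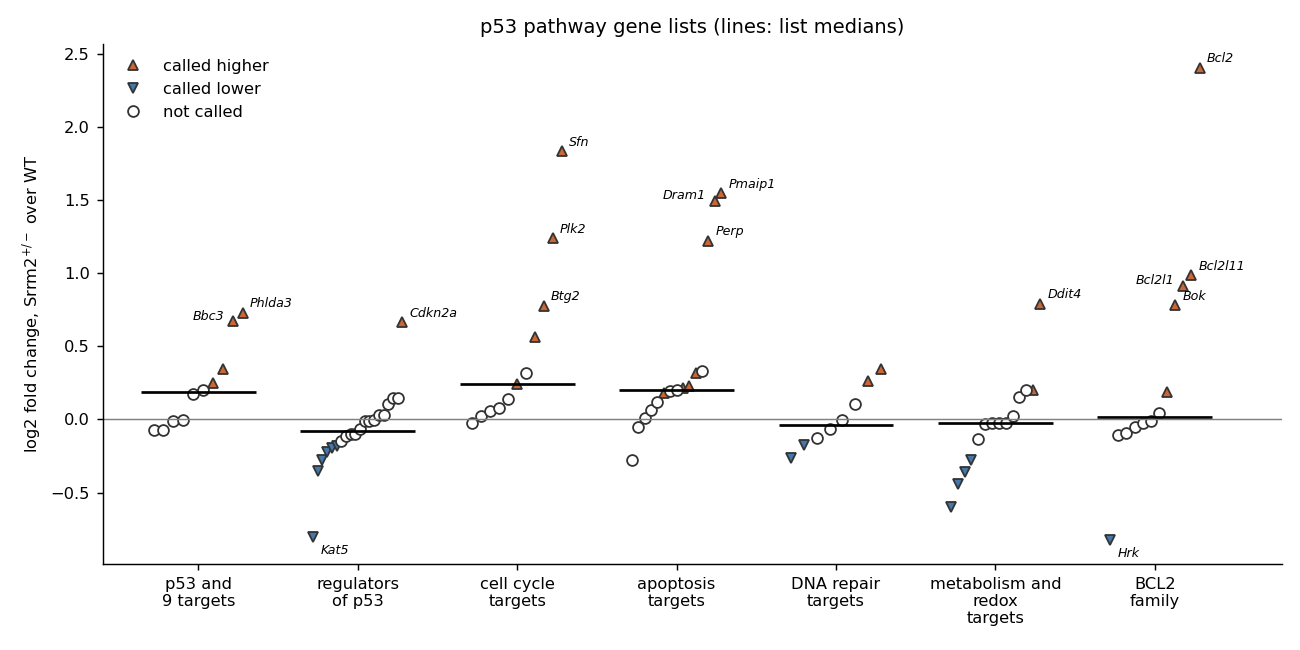
Log2 fold change, Srrm2+/- over WT (vertical axis), of every tested gene in the 10 p53 genes and 6 lists, with triangles for genes past the test and a line at each list's median. The lines of the cell cycle (0.24) and apoptosis (0.20) targets lie above 0 and that of the regulators (-0.08) below it, and Bcl2 (2.41) is the highest point.

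The BCL2 family, the layer on which PUMA and NOXA act, was listed separately, without Bax and with Bid in common with the apoptosis targets. Of its 12 genes 5 rose and 1 fell, beside 13.6% and 11.7% of all genes. The median log2 fold change was 0.02 and had no settled sign, with -0.01 without Srrm2+/- replicate 1 and 0.11 without WT replicate 3. Of 4 guardians against apoptosis in the list, 3 rose. Bcl2 went from 0.991, 0.778 and 0.933 CPM in WT to 5.19, 4.36 and 4.78 CPM in Srrm2+/- (log2 fold change 2.41, standard error 0.15, adjusted p by edgeR = 1.09e-05). Bcl2l1, which encodes BCL-XL, rose from 11.8 ± 0.901 to 22.3 ± 1.6 CPM (0.91; edgeR adjusted p = 5.27e-05). Mcl1 rose by 0.18 on the log2 scale from 500 ± 14.4 CPM, and Bcl2l2, which encodes BCL-W, passed no test (-0.02; edgeR adjusted p = 0.782). Promoters of apoptosis moved both ways, with Bcl2l11 (BIM) higher by 0.98 and Bok by 0.78, and Hrk lower, from 20.8 ± 1.70 to 11.7 ± 0.878 CPM. Bak1, the pore-forming relative of Bax, passed no test (-0.10), as Bax did not.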

How the data were processed

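The authors pseudo-aligned paired reads of stranded total RNA libraries with Kallisto 0.46.1 to GENCODE release M24 transcripts (mouse, GRCm38), and the deposited values are estimated counts for each gene, not normalized. Reads that fit several transcripts are divided among them. Its strand setting was not given in the sources used here.

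Groups and replicate numbers came from the sample titles. Estimated counts were rounded. Symbols, lengths and positions came from GENCODE release M21, which held 42156 of the 42450 identifiers. Genes past filterByExpr (minimum count 10, minimum total 15) were tested with edgeR 4.0.16 (TMM, glmQLFit, glmQLFTest, two-sided, genotype as the single term, 6 libraries). Adjustment was by Benjamini-Hochberg over all 18905 tested genes, with calls made under 0.05. Standard errors are the size of the log2 fold change over the root of F. CPM used TMM-scaled library sizes. The edgeR fit was checked on simulated counts of 18905 genes, 200 of them changed. It recovered 54% of 1.5-fold and 70% of 2-fold changes, and 11.4% of its calls fell on unchanged genes. Smaller changes were not simulated. Far fewer genes were changed there than were called here, so these rates need not hold for the real libraries.

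The members, the gene lists and the tests were chosen with earlier results of these data known. The text names, for each list, up to 4 called genes with the largest change in each direction, genes too low to test, and Cdkn1a, Pmaip1, Mdm4, Ppm1d, Bcl2, Bcl2l1 and Mcl1. Other called genes, Bak1, Bcl2l2, Cop1 and Crebbp were named after their values were seen. Alternatives were RLE and upper quartile scaling, DESeq2 1.42.0, limma voom 3.58.1, a filter of at least 1 count, the replicate number as a block, a fit without mitochondrial, rRNA and short RNA genes, stricter call rules, longest-transcript lengths, and each library left out. Replicates of a group differed by more than counting noise (the lowest chi-square per degree of freedom was 14.7, for genes of 20 counts or more), so each was counted as 1 replicate. P-values measure the spread between cultures of 1 clone per genotype.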

Additional observations from a re-analysis of the deposited data

How the results depend on the processing

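Phlda3, Bbc3, Mdm2 and Ccng1 stayed higher and past the threshold under the 13 alternatives to the fit that were run for each gene. No member reached an absolute log2 fold change of 1, so a rule that adds that limit left 0 calls, and 3 were left at an adjusted p under 0.01, where Ccng1 (0.0123) was lost. Leaving out one library at a time gave 4 called members each time, and log2 fold changes of 0.58 to 0.81 for Phlda3, 0.62 to 0.70 for Bbc3, 0.29 to 0.39 for Mdm2 and 0.20 to 0.28 for Ccng1. The direction of genes near 0 changed. Trp53 (-0.01) ranged from -0.16 to 0.10 over the libraries left out and was 0.000456 with the replicate block. Zmat3 ranged from -0.066 to 0.028, Cdkn1a from -0.020 to 0.14, and Bcl2l2 from -0.053 to 0.015. DESeq2 called Trp53inp1 (0.20). All genes called went from 4781 to 2779 at an adjusted p under 0.01, to 1153 with the added fold limit, and to between 3515 and 4122 with one library left out.

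Replicate numbers did not pair the libraries (correlations of same-numbered deviations -0.0285, -0.0337 and -0.03). The replicate block gave 4 member calls, as without it, and 4166 calls over all genes, and apoptosis targets called went from 7 to 4. With one library left out that list had 4 to 6 calls, and the 4 target lists together had 15 to 22, against 22 with all libraries and 19 with the block. In 4 of the fits with one library left out these calls include Fas. The causes of these changes were not tested. Scaling moved the median of all genes by less than 0.1.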
